A study of Mus musculus with 27 samples.

Results

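The 10 genes described here take part in the uptake and breakdown of heme and in the movement of its iron. They are the heme oxygenase Hmox1, the biliverdin reductases Blvra and Blvrb, the heme transporter Slc48a1, the scavenger receptor Lrp1, the iron exporter Slc40a1, the divalent metal transporters Slc11a1 and Slc11a2, the transferrin receptor Tfrc and the ferritin cargo receptor Ncoa4. They were picked by symbol, with no level entering the rule, but with earlier results of these data known. They are 10 of the 56691 genes in the count table. All 10 passed the filter on low counts, which left 17573 genes for testing. Tfrc passed it with 0 counts in 7 libraries and with under 1 CPM (counts per 1000000 counts of the library, scaled by TMM) in 13 of 27.

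The libraries hold RNA of microglia, the resident macrophages of the brain, sorted from tissue around the hematoma of wild-type mice. Intracerebral hemorrhage (ICH) had been induced with collagenase, an enzyme that weakens vessel walls, and the series asks whether microglia after the bleed depend on gut microbes. The 9 groups of 3 libraries are germ-free (GF) mice at ICH day 7, at ICH day 3 and after sham treatment, mice on an antibiotic cocktail (ABX) at ICH day 7, at ICH day 3 and after sham treatment, and specific pathogen-free (SPF) mice at ICH day 7, at ICH day 3 and after sham treatment. Shams received PBS and are labelled day 7, so a comparison of day 3 with sham differs in day as well as in hemorrhage. The labels do not say whether each library came from a separate animal, so p-values measure the spread between these libraries. They give no age.

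When red cells break down in a hematoma, macrophages take up hemoglobin and heme, carry heme out of the phagolysosome and open its ring with heme oxygenase, which frees iron and carbon monoxide and leaves biliverdin. Biliverdin reductases turn biliverdin into bilirubin, and the iron is stored in ferritin or leaves the cell through ferroportin. Iron regulatory proteins bind a hairpin, the iron-responsive element, when cells lack iron: bound in the leader of a ferritin or ferroportin mRNA it blocks translation, and bound in the trailer of the transferrin receptor mRNA it keeps that mRNA from decay.

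That hairpin is shown because it is the element through which iron acts on the mRNAs of Slc40a1, Tfrc and the ferritin genes. It was searched in whole protein-coding transcripts of GENCODE M21, coding sequence included, on the strand of the mRNA. The pattern was a bulged C, an arm of 5 bases, the loop CAGTGN and an arm of 5 bases that pairs with the first. Of 21901 protein-coding genes, 294 (1.34%) held at least 1 match anywhere in a transcript. Among the members 2 of 10 did, Slc40a1 and Tfrc. The matches of Slc40a1, Tfrc and the ferritin genes Fth1 and Ftl1 are printed with 5 bases on each side, 5′ to 3′ as in the mRNA, with the 6-base loop in capitals, from mm10.
Slc40a1, 5′ UTR, chr1:45925466-45925492, minus strand: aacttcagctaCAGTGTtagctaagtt
Tfrc, 3′ UTR, chr16:32631220-32631246, plus strand: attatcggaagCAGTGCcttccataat
Tfrc, 3′ UTR, chr16:32631599-32631625, plus strand: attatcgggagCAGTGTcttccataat
Tfrc, 3′ UTR, chr16:32631664-32631690, plus strand: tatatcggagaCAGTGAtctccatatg
Tfrc, 3′ UTR, chr16:32631711-32631737, plus strand: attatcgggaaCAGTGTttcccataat
Fth1, 5′ UTR, chr19:9982733-9982759, plus strand: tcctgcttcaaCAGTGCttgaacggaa
Ftl1, 5′ UTR, chr7:45459780-45459806, minus strand: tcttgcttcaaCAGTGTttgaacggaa
The 4 Tfrc hairpins are not identical, and the 2 ferritin hairpins share both arms. A match is a description of these letters. For the other 8 members, Slc11a2 among them, it says only that this pattern is not in their annotated protein-coding transcripts. The arms had to pair at all 5 positions, so a hairpin with an extra unpaired base within an arm is missed.

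Libraries held 41664864 to 79090595 counts. The number of genes detected was 9185 to 11925 in 7 libraries, which are all 3 of GF ICH day 7, 2 of ABX ICH day 7 and 2 of GF sham, and 13536 to 18408 in the other 20. The members follow this split: leaving out Tfrc, 18 of 63 member values were under 1 CPM in the 7 libraries and 0 of 180 in the other 20. The median log2 level of GC-rich minus GC-poor abundant genes, relative to all libraries, was also low in GF ICH day 7 (−2.13 ± 0.59, SD, n = 3) and ABX ICH day 7 (−0.79 ± 0.20), against group means of −0.04 to 1.28 elsewhere. Mitochondrial genes took 3.69 to 6.45% of counts in GF ICH day 7 and 1.94 to 3.52% in ABX ICH day 7, against 0.878 to 2.33% in the other groups. Their part in the results at day 7 was not tested. In ABX ICH day 7 replicate 3, which is outside the 7, the GC difference was −0.67. The members' longest transcripts hold 39.8% GC (Tfrc), 42.0% (Slc40a1), 44.6% (Blvra), 45.3% (Ncoa4), 50.4% (Slc11a2), 53.3% (Hmox1), 53.7% (Blvrb), 55.4% (Slc11a1), 56.1% (Slc48a1) and 57.9% (Lrp1). Beyond the fits with offsets for GC content given below, its part in the ABX and GF values of these members at day 7 was not tested. Where libraries remain, results are also given without the 7. The microglial genes P2ry12 (1173 to 18484 CPM), Tmem119 (244.8 to 9528 CPM) and Cx3cr1 (217.5 to 12857 CPM) were present in every library.

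Hmox1 (chr8:75093621-75100589, plus strand), the inducible enzyme that opens the heme ring, was high at day 3 in each microbiota condition. In GF mice Hmox1 stood at 841, 1939 and 1109 CPM at ICH day 3, against 9.19, 65.9 and 31.3 CPM in sham. In ABX mice it stood at 1422, 1004 and 1279 CPM at ICH day 3, against 32.4, 29.4 and 22.6 CPM in sham. In SPF mice it stood at 1438, 1824 and 914 CPM at ICH day 3, against 33.5, 49.3 and 37.3 CPM in sham. The lowest of the 9 day 3 libraries lay more than 10 times above the highest of the 9 shams. Averaged over the 3 conditions, Hmox1 rose by 5.25 ± 0.75 (log2 fold change ± SE) at day 3, with means of 1308 ± 387 CPM at ICH day 3 and 34.6 ± 16.0 CPM in sham (SD, n = 9 each; edgeR adjusted p = 0.000191). The call held without any single library, with log2 fold changes of 5.10 to 5.52 and adjusted p of 4.41e-06 to 0.00167, and without the 7 libraries (5.30 ± 0.37, adjusted p = 2.1e-06).

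**Figure D1:**
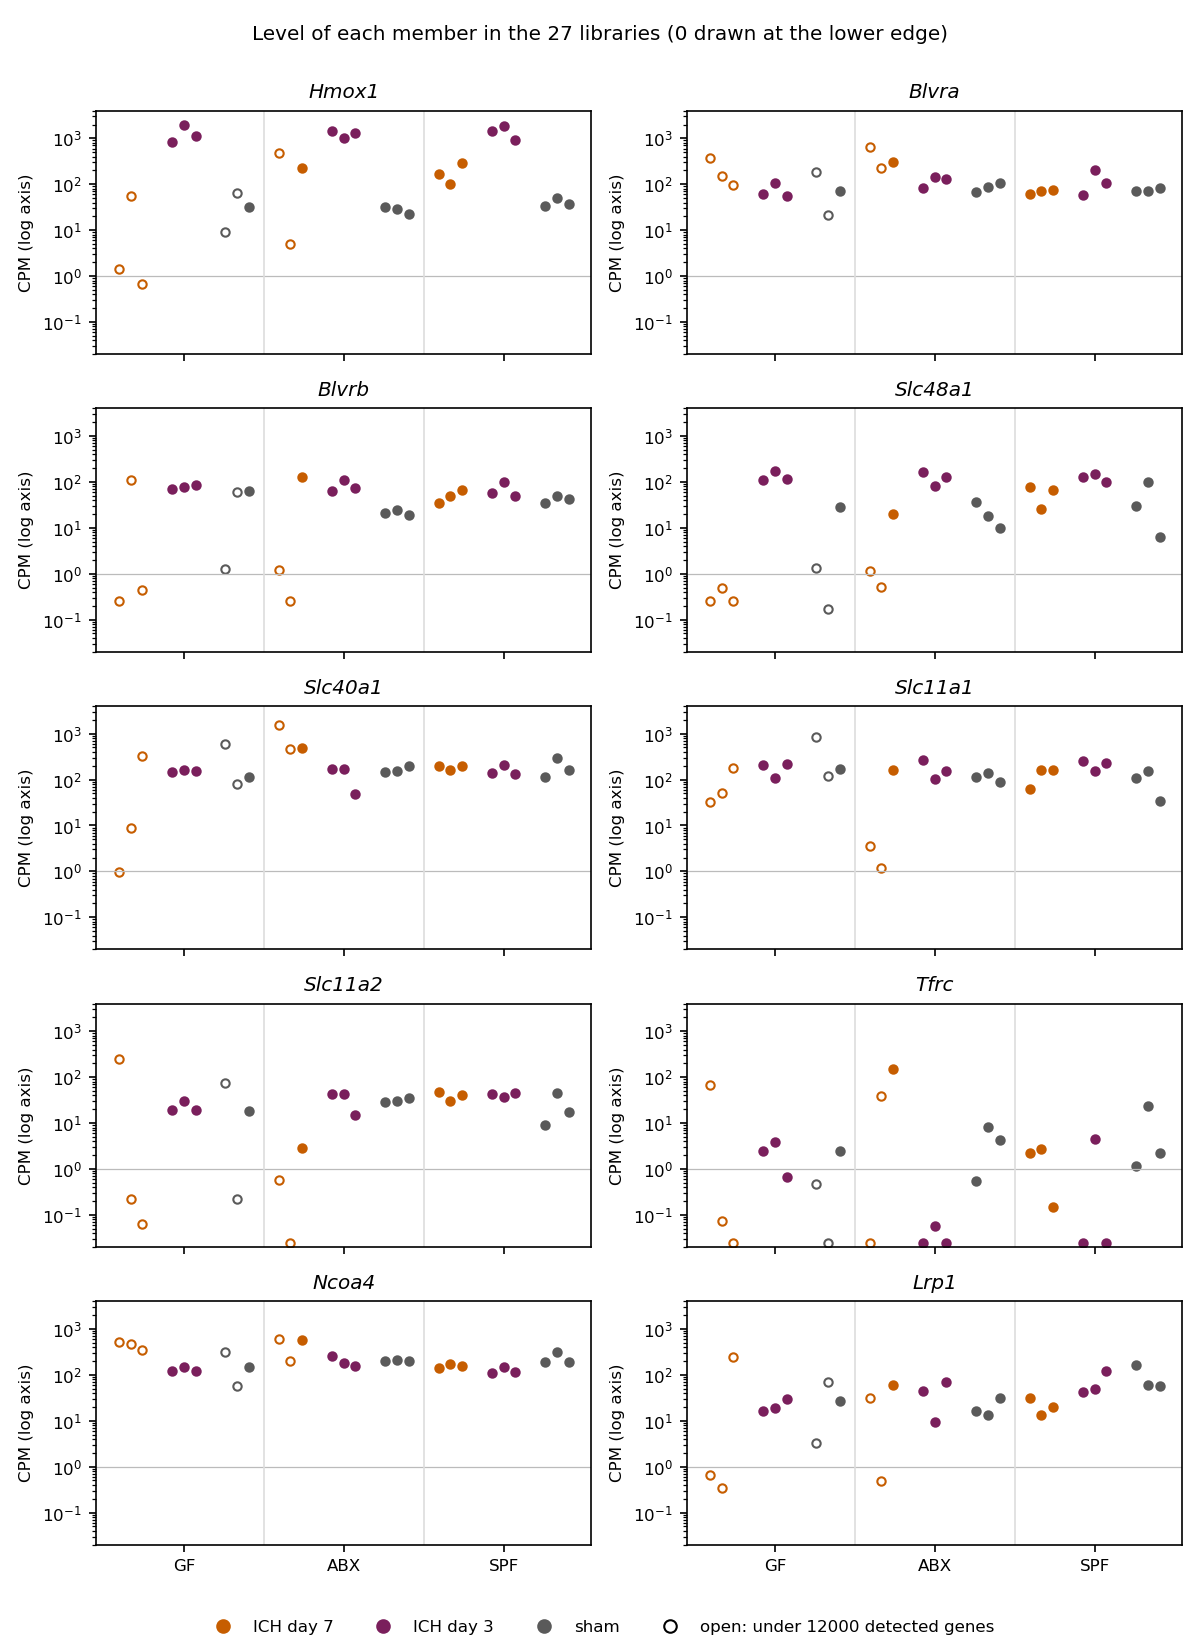
CPM of each of the 10 members (log axis, 0 drawn at the lower edge) in GF, ABX and SPF mice, with 1 point per library and, within each condition, ICH day 7, ICH day 3 and sham from left to right. Open points are the 7 libraries under 12000 detected genes; the 9 Hmox1 points at day 3, from 841 to 1939 CPM, lie above every other Hmox1 point, and the Hmox1 points at day 7 range from 0.673 to 474 CPM.

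By day 7 Hmox1 varied widely between libraries. It stood at 1.43, 56.4 and 0.673 CPM in GF ICH day 7, at 474, 5.02 and 226.7 CPM in ABX ICH day 7 and at 168.6, 102.1 and 289.0 CPM in SPF ICH day 7. All 3 SPF libraries lay above the SPF shams, 2 of 3 ABX libraries lay above the ABX shams, and the GF libraries overlapped the GF shams. Relative to day 3, Hmox1 fell by 3.78 on the log2 scale at day 7 (SE 0.70, edgeR adjusted p = 0.00131), with no overlap between the 9 libraries of day 7 and the 9 of day 3. Relative to sham the averaged difference at day 7 was 1.47 ± 0.64, which did not pass (adjusted p = 0.0988). With GC offsets in edgeR it was 2.14 and passed (adjusted p = 0.0315), whereas by voom it was −0.07 (adjusted p = 0.973). In SPF and ABX mice alone, without the 7 libraries, Hmox1 rose by 2.48 ± 0.29 at day 7 relative to sham (adjusted p = 0.000105) and fell by 2.79 relative to day 3 (SE 0.38, adjusted p = 0.00150). That estimate rests on 4 day 7 libraries, 1 of them from ABX mice.

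Within single conditions edgeR called no Hmox1 difference from sham over all 27 libraries. The log2 fold change at day 3 was 5.19 ± 1.30 in GF mice (adjusted p = 0.435), 5.45 ± 1.32 in ABX mice (adjusted p = 0.182) and 5.12 ± 1.30 in SPF mice (adjusted p = 0.266). The 3 ICH libraries lay above the 3 shams in each. Over the same 27 libraries DESeq2 called all 3 (adjusted p = 0.000711 in GF, 5.42e-05 in ABX and 0.000325 in SPF mice) and ABX day 7 against sham (3.11, adjusted p = 0.0228). Voom called day 3 in ABX (adjusted p = 0.000234) and SPF mice (adjusted p = 0.00266). Without the 7 libraries the day 3 comparisons passed in edgeR, at 5.37 ± 0.70 in GF mice with 1 sham library left (adjusted p = 0.0185), 5.42 ± 0.43 in ABX mice (adjusted p = 1.29e-05) and 5.12 ± 0.42 in SPF mice (adjusted p = 1.23e-05). The difference between conditions in this day 3 response was 0.07 ± 1.54 for GF minus SPF and 0.33 ± 1.54 for ABX minus SPF (adjusted p = 1.00 each), an SE that leaves room for sizeable differences either way. Between day 7 and day 3 in GF mice Hmox1 fell by 6.05 (SE 1.36, adjusted p = 0.00568), a comparison in which all 3 day 7 libraries are among the 7.

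**Figure D2:**
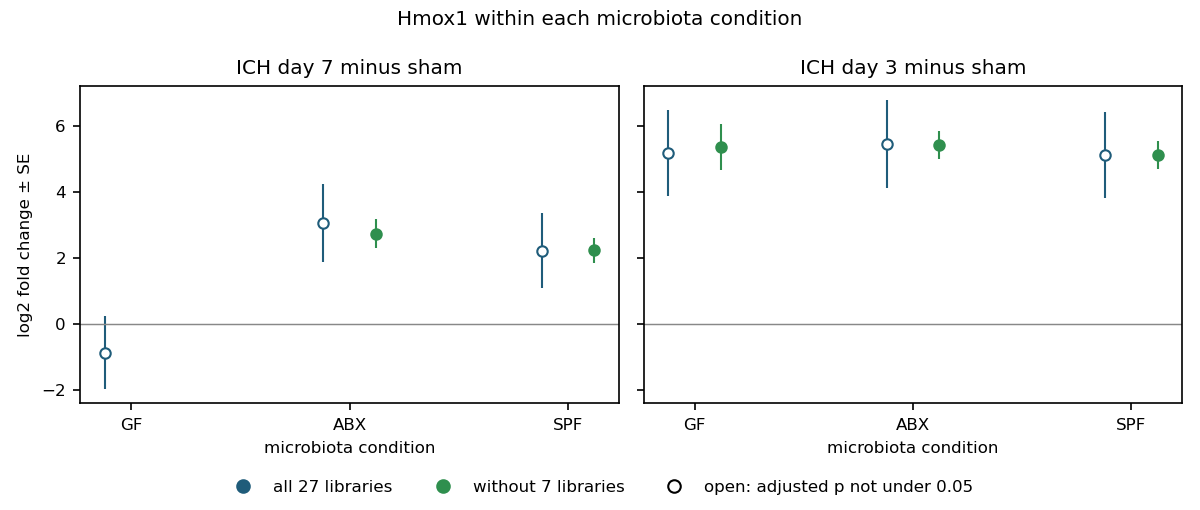
Log2 fold change of Hmox1 against sham (points, with bars of 1 SE) at ICH day 7 and ICH day 3 in GF, ABX and SPF mice, from all 27 libraries and without the 7 libraries under 12000 detected genes; open points did not pass adjusted p 0.05. The day 3 values lie between 5.12 and 5.45 in every condition and fit, while those of day 7 range from −0.86 in GF mice to 3.06 in ABX mice, and GF ICH day 7 has no library left in the second fit.

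Fold changes of the biliverdin reductases at day 3 were smaller than that of Hmox1. Blvrb (chr7:27447978-27466144, plus strand), which reduces biliverdin isomers and flavins, had 70.1, 76.4 and 84.9 CPM in GF ICH day 3, against 1.29, 59.6 and 64.7 CPM in GF sham. It had 62.4, 108.6 and 72.5 CPM in ABX ICH day 3, against 21.5, 24.0 and 19.1 CPM in ABX sham. It had 58.2, 99.8 and 49.1 CPM in SPF ICH day 3, against 34.9, 48.5 and 43.3 CPM in SPF sham. Every day 3 library lay above every sham of its own condition. The averaged day 3 difference was 1.17 ± 0.94 and did not pass over all libraries (edgeR adjusted p = 0.799), whereas without the 7 libraries Blvrb rose by 0.95 ± 0.23 (adjusted p = 0.0396). At day 7 Blvrb had 0.253, 112.3 and 0.442 CPM in GF, 1.23, 0.253 and 127.0 CPM in ABX and 34.9, 49.5 and 67.5 CPM in SPF mice. The 4 values near or under 1 CPM all come from the 7 libraries, and in SPF and ABX mice without these Blvrb rose at day 7 by 1.28 ± 0.27 relative to sham (adjusted p = 0.00917).

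Blvra (chr2:127070665-127097084, plus strand), the main adult biliverdin reductase, did not follow Hmox1. At day 3 its range over the 9 libraries was 54.5 to 209.5 CPM with a median of 104.4 CPM, against 21.4 to 186.7 CPM with a median of 72.9 CPM in sham (log2 fold change 0.28 ± 0.40, adjusted p = 1.00). At day 7 it had 372.1, 153.1 and 96.1 CPM in GF, 652.5, 229.7 and 309.6 CPM in ABX and 60.0, 71.3 and 75.7 CPM in SPF mice. The SPF libraries at day 7 overlapped the SPF shams (71.1 to 81.2 CPM), while those of ABX mice lay above every ABX sham (67.7 to 106.5 CPM). The averaged difference of day 7 and sham was 1.07 ± 0.40 (adjusted p = 0.0575; 1.23 by voom, adjusted p = 0.0269), and ABX minus SPF at day 7 was 2.53 ± 0.73 (adjusted p = 0.133; called by DESeq2 at 0.00586 and by voom at 0.0466). Without the 7 libraries, with 1 ABX library left, Blvra was higher by 1.92 ± 0.50 in ABX than in SPF mice at day 7 (adjusted p = 0.0300).

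Slc48a1 (chr15:97778520-97792692, plus strand) encodes HRG1, which moves heme from the phagolysosome into the cytosol. In GF mice Slc48a1 had 0.253, 0.489 and 0.252 CPM at ICH day 7, 108.1, 173.6 and 116.9 CPM at ICH day 3 and 1.33, 0.174 and 27.9 CPM in sham. In ABX mice it had 1.14, 0.505 and 19.8 CPM at ICH day 7, 162.9, 81.3 and 127.2 CPM at ICH day 3 and 35.9, 18.2 and 10.1 CPM in sham. In SPF mice it had 77.0, 25.6 and 65.7 CPM at ICH day 7, 128.8, 149.5 and 98.7 CPM at ICH day 3 and 29.8, 101.3 and 6.18 CPM in sham. The 9 day 3 libraries held the highest values, and 1 SPF sham, at 101.3 CPM, was the only sham that reached them. The averaged day 3 difference was 2.58 ± 0.78 (edgeR adjusted p = 0.113), and Slc48a1 rose by 2.08 ± 0.52 without the 7 libraries (adjusted p = 0.0458). Slc48a1 overlaps Hdac7 on the other strand by 29 bases, and Hdac7 averaged 0.0578 CPM.

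Between day 7 and day 3 Slc48a1 fell by 4.64 on the log2 scale (SE 0.86, edgeR adjusted p = 0.00127), with no overlap between the 9 libraries of each day. Against sham the averaged day 7 difference was −2.05 ± 0.77 (adjusted p = 0.0584), which DESeq2 called (−2.38, adjusted p = 0.00145). All 3 GF libraries and 2 of 3 ABX libraries of day 7 were near 1 CPM or less. In SPF and ABX mice without the 7 libraries the difference was −2.02 ± 0.67 and did not pass (adjusted p = 0.0952), nor did it with all libraries (−2.64, adjusted p = 0.260). In SPF mice alone it was −1.16 ± 1.29 (adjusted p = 1.00), although the 3 SPF libraries of day 7 lay below the 3 of day 3. In GF ICH day 7 Slc48a1 was lower than in GF sham (−4.88 ± 1.51, adjusted p = 0.0322), in GF ICH day 3 (−8.64 ± 1.78, adjusted p = 0.00354) and in SPF ICH day 7 (−7.39 ± 1.69, adjusted p = 0.00874). The GF minus SPF difference in the day 7 response was −5.17 ± 1.92 and did not pass (adjusted p = 0.0988). The call against GF sham was lost with GC offsets (−2.43, adjusted p = 0.218), by voom (−2.87, adjusted p = 0.657), in GF libraries alone (−4.76, adjusted p = 0.138) and with a replicate block (−4.36, adjusted p = 0.0872). It was also lost without any 1 of the 3 GF ICH day 7 libraries or without GF sham replicate 3, and the value ranged from −5.45 to −1.16 as each library was left out in turn. All 3 GF ICH day 7 libraries and 2 of the GF shams are among the 7, and the part of this in the GF results was not tested.

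**Figure D3:**
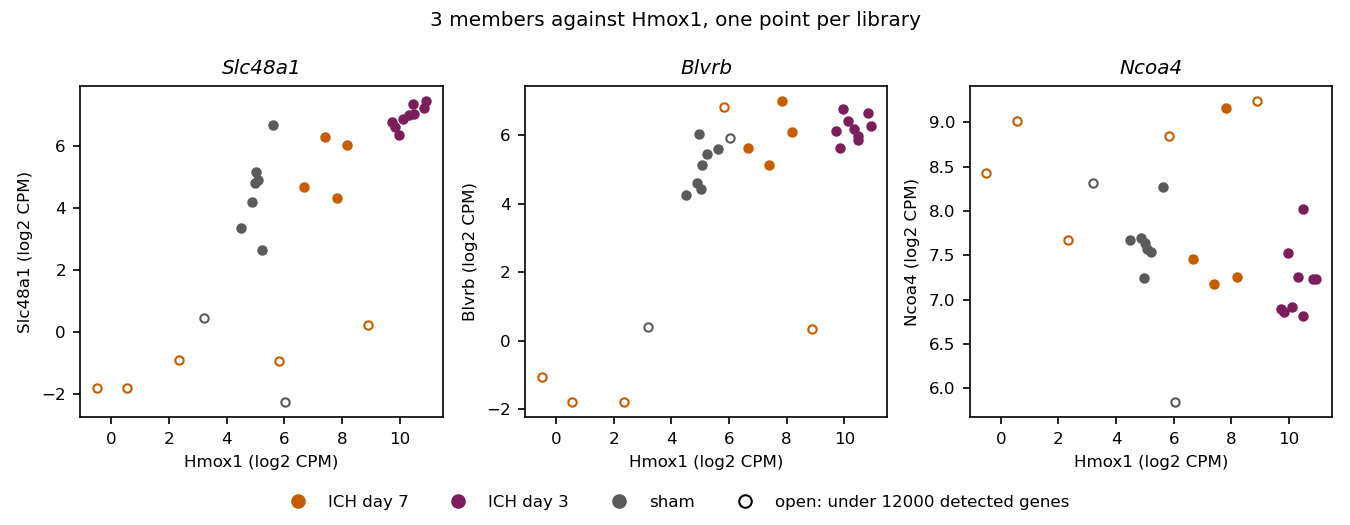
Log2 CPM (prior count 2) of Slc48a1, Blvrb and Ncoa4 against that of Hmox1, with 1 point per library (27) coloured by ICH day 7, ICH day 3 or sham; open points are the 7 libraries under 12000 detected genes. Slc48a1 and Blvrb follow Hmox1 (Pearson r 0.76 and 0.72 over 27 libraries), and r is −0.40 for Ncoa4.

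Across libraries Slc48a1 and Blvrb were the members closest to Hmox1. Pearson's r of log2 CPM with Hmox1 was 0.76 for Slc48a1 and 0.72 for Blvrb over 27 libraries, and 0.83 and 0.71 over the 20 libraries of at least 12000 detected genes. For the other 7 members r lay between −0.40 (Ncoa4) and 0.32 (Slc11a2) over 27 libraries. These values are descriptions: the libraries share groups and days, and differ in detected genes and GC balance as given above. Among the other 7000 protein-coding genes of at least 10 CPM on average, those most alike to Hmox1 over the 27 libraries were Cdca8 (r = 0.86), Cela1 (r = 0.85) and Tk1 (r = 0.84). Tk1 and Cdca8 are genes of dividing cells, and Tk1 averaged 3.69 CPM at ICH day 7, 64.2 CPM at ICH day 3 and 2.63 CPM in sham.

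Lrp1 (chr10:127538161-127621148, minus strand), a receptor of many ligands that takes up heme bound to hemopexin, varied widely within groups. Its levels spanned 0.338 to 239.8 CPM with a median of 20.2 CPM at ICH day 7, 9.18 to 120.1 CPM with a median of 43.0 CPM at ICH day 3 and 3.34 to 161.1 CPM with a median of 32.1 CPM in sham. The 3 groups of 9 overlapped, but within SPF mice the day 7 libraries (13.3 to 31.5 CPM) lay below those of day 3 (43.0 to 120.1 CPM) and sham (57.1 to 161.1 CPM), a difference from sham of −2.10 ± 1.58 (edgeR adjusted p = 1.00). The averaged differences were −0.09 ± 0.88 for day 7 and 0.01 ± 0.88 for day 3 against sham (edgeR adjusted p = 1.00 each). Without GF ICH day 7 replicate 3, at 239.8 CPM, the day 7 difference was −2.54 and passed (adjusted p = 0.0284).

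Slc40a1 (chr1:45908068-45926523, minus strand) encodes ferroportin, the only known exporter of iron from cells. In ABX mice it had 1539, 463.7 and 493.7 CPM at ICH day 7, 168.8, 172.9 and 49.7 CPM at ICH day 3 and 147.9, 155.5 and 193.4 CPM in sham. In GF mice it had 0.947, 8.83 and 323.7 CPM at ICH day 7, 146.9, 164.9 and 153.4 CPM at ICH day 3 and 601.4, 81.3 and 115.1 CPM in sham. In SPF mice it lay between 113.1 and 291.2 CPM in all 9 libraries. All 3 ABX libraries of day 7 lay above every other ABX and SPF library, but the ABX difference from sham, 2.33 ± 1.11, did not pass (edgeR adjusted p = 0.229). The averaged differences from sham were −0.46 ± 0.61 at day 3 (adjusted p = 0.990) and 0.35 ± 0.61 at day 7 (adjusted p = 0.805). The hairpin in its leader concerns translation, which these counts do not measure.

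Slc11a1 (chr1:74375195-74386062, plus strand), or NRAMP1, pumps divalent metals out of the phagosome and is typical of macrophages. Its levels were 1.21 to 180.0 CPM with a median of 62.1 CPM at ICH day 7, 103.4 to 263.5 CPM with a median of 205.9 CPM at ICH day 3 and 33.6 to 850.5 CPM with a median of 120.9 CPM in sham. The highest sham value belongs to 1 GF sham library, and the next was 168.2 CPM. The averaged difference from sham was −0.91 ± 0.63 at day 7 (edgeR adjusted p = 0.323) and 0.22 ± 0.63 at day 3 (adjusted p = 1.00), and day 7 minus day 3 was −1.13 ± 0.63 (adjusted p = 0.212). Voom called the last (−2.09, adjusted p = 0.0123), as did edgeR without ABX ICH day 7 replicate 3 (−2.64, adjusted p = 0.00137). Without that library day 7 against sham also passed (−2.42, adjusted p = 0.00234), and DESeq2 called GF day 7 against sham (−2.75, adjusted p = 0.0306).

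Slc11a2 (chr15:100387898-100425072, minus strand), or DMT1, carries ferrous iron out of the endosome. Its levels were 15.4 to 44.3 CPM at ICH day 3 and 0.218 to 75.0 CPM in sham. In ABX ICH day 7 it had 0.569, 0 and 2.81 CPM, against 42.2, 43.2 and 15.4 CPM in ABX ICH day 3, and in GF ICH day 7 it had 248.3, 0.226 and 0.0631 CPM. All 3 ABX libraries of day 7 lay below all other ABX libraries, including replicate 3, which is not among the 7. The ABX difference of day 7 and sham was −4.78 ± 2.07 over all libraries (edgeR adjusted p = 0.212), and Slc11a2 fell by 3.75 with that 1 ABX library (SE 0.94, adjusted p = 0.0204). Without GF ICH day 7 replicate 1, at 248.3 CPM, the averaged differences passed at day 7 against sham (−3.92, adjusted p = 0.0117) and against day 3 (−4.08, adjusted p = 0.00990). Without the 7 libraries the ABX minus SPF difference was −4.07 ± 0.96 at day 7 (adjusted p = 0.0180) and −4.51 ± 1.06 in the day 7 response (adjusted p = 0.0314). An antisense gene, Gm5475, overlaps it by 402 bases and had 0 CPM. With a single library, its spread is assumed to be that of the other groups.

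Tfrc (chr16:32608920-32632794, plus strand), which takes up transferrin-bound iron, was at or near 0 in many libraries. In GF mice it had 67.0, 0.0752 and 0 CPM at ICH day 7, 2.46, 3.85 and 0.672 CPM at ICH day 3 and 0.483, 0 and 2.42 CPM in sham. In ABX mice it had 0, 38.3 and 153.3 CPM at ICH day 7, 0, 0.0570 and 0 CPM at ICH day 3 and 0.554, 8.44 and 4.24 CPM in sham. In SPF mice it had 2.21, 2.72 and 0.147 CPM at ICH day 7, 0, 4.40 and 0 CPM at ICH day 3 and 1.16, 23.6 and 2.25 CPM in sham. Of the 27 libraries, 3 at day 7 carried its highest values, and the other day 7 libraries lay within the range of sham. Tfrc, whose trailer carries the 4 hairpins shown above, rose by 5.02 ± 1.74 at day 7 relative to day 3 (edgeR adjusted p = 0.0449), but the groups overlapped and the call held in only 8 of 27 fits that leave out 1 library, with values from 1.98 to 8.16. It was also lost with GC offsets (4.18, adjusted p = 0.0928). Relative to sham it was 1.99 ± 1.52 at day 7 (adjusted p = 0.381) and −3.03 ± 1.59 at day 3 (adjusted p = 0.473).

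Ncoa4 (chr14:32159865-32179855, plus strand), which delivers ferritin to the lysosome and so releases stored iron, was higher at day 7 than at day 3. In GF mice it had 518.1, 458.9 and 346.0 CPM at ICH day 7, 118.7, 150.4 and 120.8 CPM at ICH day 3 and 318.2, 57.4 and 150.9 CPM in sham. In ABX mice it had 602.8, 203.1 and 571.2 CPM at ICH day 7, 259.6, 182.9 and 152.4 CPM at ICH day 3 and 199.1, 207.0 and 204.1 CPM in sham. In SPF mice it had 144.6, 175.8 and 152.6 CPM at ICH day 7, 111.8, 149.8 and 115.8 CPM at ICH day 3 and 189.9, 309.4 and 186.1 CPM in sham. It was the one member above 50 CPM in every library, and the SPF libraries at both days lay below the SPF shams. Ncoa4 rose by 1.10 ± 0.30 at day 7 relative to day 3 (edgeR adjusted p = 0.0157), with means of 352.6 ± 189.1 CPM at ICH day 7 and 151.4 ± 46.8 CPM at ICH day 3 (SD, n = 9 each), and the groups overlapped. In GF mice that rise was 1.76 ± 0.53 (adjusted p = 0.0276). It was not called with GC offsets (0.77, adjusted p = 0.332), DESeq2 size factors (1.54, adjusted p = 0.0796), no filter (1.76, adjusted p = 0.105) or GF libraries alone (1.88, adjusted p = 0.109). In SPF mice the difference was 0.33 ± 0.52 (adjusted p = 1.00). With offsets for GC content the averaged difference was 0.60 ± 0.32 and no longer passed (adjusted p = 0.206), nor did it without the filter (1.08, adjusted p = 0.0637). In SPF and ABX mice without the 7 libraries Ncoa4 rose by 0.81 ± 0.20 (adjusted p = 0.0237). In that smaller set of libraries, with 1 ABX library at day 7, Ncoa4 was higher in ABX than in SPF mice by 1.61 ± 0.31 at day 7 (adjusted p = 0.00703) and by 1.74 ± 0.40 in the day 7 response (adjusted p = 0.0288).

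**Figure D4:**
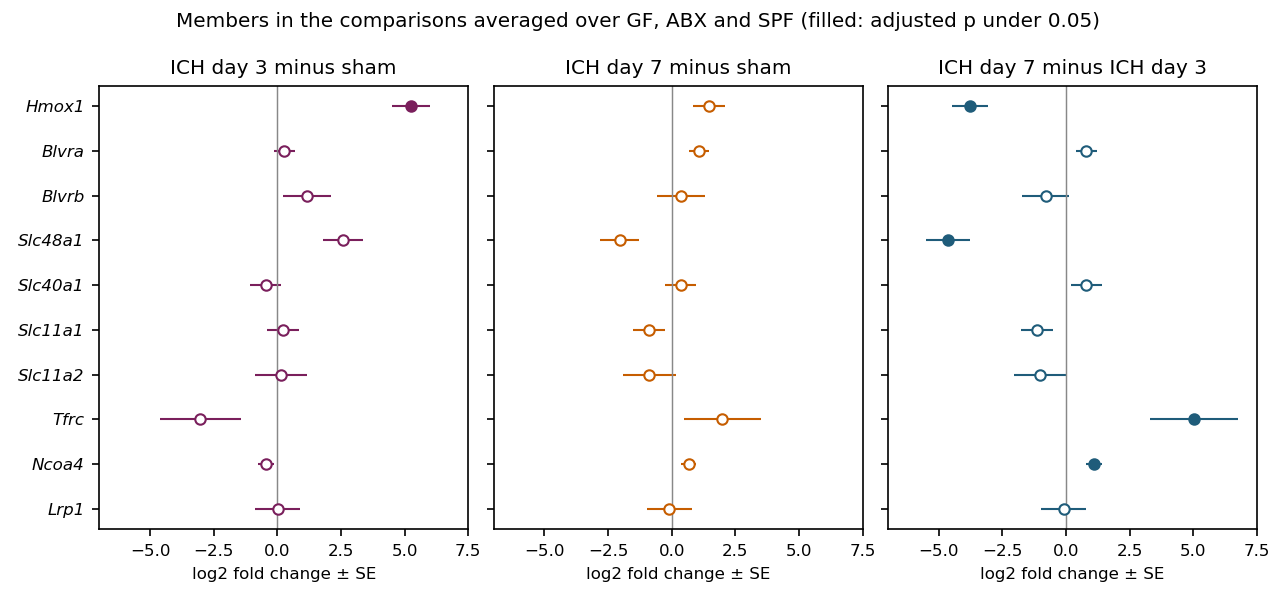
Log2 fold change (points, with bars of 1 SE) of the 10 members in 3 comparisons averaged over GF, ABX and SPF mice, with 9 libraries in each group; filled points passed adjusted p 0.05. Hmox1 alone is filled for ICH day 3 minus sham, none for ICH day 7 minus sham, and Hmox1, Slc48a1, Tfrc and Ncoa4 for ICH day 7 minus ICH day 3.

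Levels of different genes can be set against each other only per length. Per kb of annotated exon, the median over the 9 day 3 libraries was 730 CPM per kb for Hmox1, 55.6 for Slc11a1, 46.2 for Slc48a1, 42.7 for Blvra, 26.0 for Blvrb, 17.0 for Slc40a1, 16.0 for Ncoa4, 5.78 for Slc11a2, 2.42 for Lrp1 and 0.00922 for Tfrc. With the longest transcript as the length, Blvra (71.5 CPM per kb) came before Slc48a1 (50.2 CPM per kb), and the order of the others was the same. In sham Hmox1 stood at a median of 18.5 CPM per kb, below Blvra at 29.8 CPM per kb.

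The members' counts are set beside the share of all genes called. As the members were chosen with earlier results of these data known, this is a description and no test of the set. At day 3 against sham, averaged over conditions, 1 of 10 members was called (Hmox1) against 1.30% of all genes tested, and without the 7 libraries 3 of 10 were (Hmox1, Slc48a1 and Blvrb) against 2.51%. For day 7 against sham, 0 of 10 were called by edgeR against 20.2% of all genes. At an unadjusted p under 0.05 were 4 members and 6359 of the 17573 genes tested. DESeq2 called 1 member (38.2% of all genes) and limma voom 2 (14.2%). In SPF and ABX mice without the 7 libraries 2 of 10 were called at day 7 (Hmox1 and Blvrb) against 6.71%. For day 7 against day 3, 4 of 10 were called against 20.1%, and in SPF and ABX mice without the 7 libraries again 4 of 10 (Hmox1 and Slc11a2 lower, Tfrc and Ncoa4 higher) against 5.89%. Over SPF and ABX mice with all libraries the count for day 7 against day 3 was 0 of 10. The share of all genes in that fit is not reported here, so this count is no result about the members. The members' median log2 fold change was 0.19 at day 3 and 0.36 at day 7 against sham, beside −0.06 and −1.24 over all genes tested. These comparisons share the sham or the day 3 libraries, so they are not independent of each other.

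Within conditions, few members or none passed. In GF mice 1 of 10 was called at day 7 against sham (14.4% of all genes), 3 of 10 at day 7 against day 3 (15.3%) and 0 of 10 at day 3 against sham (0.00569%). In the last comparison 2 members and 929 of 17573 genes had an unadjusted p under 0.05. DESeq2 called 2 members there (4.10% of all genes) and limma voom 0 (0%). In ABX mice edgeR called 0 of 10 at day 7 against sham (0.945% of all genes), at day 7 against day 3 (0.728%) and at day 3 against sham (0.125%). In that order, 5, 7 and 2 members had an unadjusted p under 0.05, as had 3776, 3663 and 1453 of 17573 genes. DESeq2 called 3, 3 and 2 members (27.8%, 27.4% and 6.18% of all genes). Voom called 2, 3 and 3 (3.31%, 1.99% and 4.94%). In SPF mice edgeR called 0 of 10 at day 7 against sham (0.0797% of all genes), at day 7 against day 3 (0%) and at day 3 against sham (0.102%). In that order, 0, 1 and 1 members had an unadjusted p under 0.05, as had 880, 719 and 1276 of 17573 genes. DESeq2 called 0, 0 and 1 members (4.03%, 3.77% and 5.43% of all genes). Voom called 0, 1 and 2 (0.842%, 0.501% and 3.01%). Without the 7 libraries Hmox1 was the 1 member called in GF mice at day 3 (0.00453% of all genes), in SPF mice at day 3 (1.26%), at day 7 (0.317%) and at day 7 against day 3 (0.00906%). In ABX mice that fit called Hmox1 and Blvrb at day 3 (1.24%), and Hmox1, Blvrb and Ncoa4 as higher and Slc11a2 as lower at day 7 (7.79%, with 1 library left). At day 7 against day 3 it called 4 of 10 in ABX mice (Tfrc and Ncoa4 higher, Hmox1 and Slc11a2 lower, 7.98%).

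Between microbiota conditions Slc48a1 was the 1 member that edgeR called over all libraries. Against SPF, GF mice had 1 of 10 called at day 7 (Slc48a1, 12.9% of all genes). DESeq2 called 2 there (Slc48a1 and Hmox1, 35.9% of all genes) and voom 3 (Slc48a1, Slc40a1 and Ncoa4, 19.2%). For GF against SPF edgeR called 0 of 10 at day 3 (0%) and 0 of 10 in sham (0.00569%), with 0 at an unadjusted p under 0.05 and 0 by DESeq2 and voom in both. Against SPF, edgeR called 0 of 10 in ABX mice at day 7 (0.0854%), and 0 of 10 at day 3 (0%) and in sham (0%). At day 7, 4 members and 3415 of 17573 genes had an unadjusted p under 0.05. DESeq2 called 3 members at day 7 (25.4% of all genes) and voom 1 (1.47%). At day 3 and in sham 0 members had an unadjusted p under 0.05, and 0 were called by either other tool. For the difference between conditions in the response to ICH the edgeR counts were 0 of 10 for GF minus SPF at day 7 (7.04% of all genes) and at day 3 (0%). They were 0 of 10 for ABX minus SPF at day 7 (0%) and at day 3 (0%). At day 7, 2 members and 4424 of 17573 genes had an unadjusted p under 0.05 for GF minus SPF, and 3 members and 2236 genes for ABX minus SPF. DESeq2 and voom called 1 member each for GF minus SPF at day 7 (28.1% and 5.31% of all genes) and 0 for ABX minus SPF. At day 3, 0 members had an unadjusted p under 0.05 and 0 were called by either tool. Without the 7 libraries ABX and SPF mice differed at day 7 in 3 of 10 members (Blvra and Ncoa4 higher and Slc11a2 lower in ABX, 6.76% of all genes) and in the day 7 response in 2 of 10 (Ncoa4 and Slc11a2, 2.99%).

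The wider pathway was read from a list of 60 genes in 8 roles, of which 51 were tested. At day 3 against sham, averaged over conditions, 2 rose and 0 fell, beside 182 higher and 47 lower of all genes (1.30%). Both are ferritin subunits: Ftl1 rose by 2.60 ± 0.23 (edgeR adjusted p = 3.28e-07) and Fth1 by 1.81 ± 0.19 (adjusted p = 2.25e-06). Both mRNAs carry a hairpin in the leader, shown above. Ftl1 averaged 25706 ± 2472 CPM at ICH day 3 and 4551 ± 2565 CPM in sham (SD, n = 9 each) with no overlap. Both rose without the 7 libraries as well. Hmox2, the constitutive heme oxygenase, was at −0.42 ± 0.30 at day 3 (adjusted p = 0.710), and the regulators Bach1 (0.07 ± 0.86) and Nfe2l2 (−0.46 ± 0.40) did not pass (adjusted p = 1.00 and 0.845). Bach1 represses and Nfe2l2 activates Hmox1 transcription.

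Of the 51 genes, at day 7 against sham, 3 rose (Fth1, Ftl1 and Lcn2, which binds iron-carrying siderophores) and 14 fell, beside 654 higher and 2904 lower of all 17573 genes tested (20.2% called), and at day 7 against day 3 0 rose and 15 fell, beside 587 higher and 2944 lower of all genes (20.1%). Those that fell at day 7 against sham included 2 of 11 of heme uptake, transport and export (Flvcr2, Abcb10), 2 of 6 tested regulators (Keap1, Mafk), 1 of 4 tested for iron storage (Pcbp1), 1 of 3 iron regulatory proteins (Aco1), 3 of 10 tested importers and reductases (Steap1, Steap2, Slc39a8) and 1 of 7 mitochondrial genes (Slc25a28). In SPF and ABX mice without the 7 libraries 3 rose (Ftl1, Fth1, Fech) and 4 fell (Keap1, Pcbp1, Pcbp2, Abcg2) of 53 tested. In GF mice 13 of 51 fell at day 7 against sham (2238 of all genes fell, 14.4% called in either direction) and 12 were lower than in SPF mice (2074 of all genes, 12.9%), and both sets hold Bach1, Nfs1 and Trf, the plasma iron carrier transferrin. Bach1 had 0.125 ± 0.217 CPM in GF ICH day 7, 45.4 ± 10.9 CPM in GF ICH day 3 and 34.2 ± 39.5 CPM in GF sham (SD, n = 3 each). The day 7 response of Ftl1 differed by −3.07 ± 0.54 for GF minus SPF (adjusted p = 0.00217), with 4044 ± 1063 CPM in GF ICH day 7 and 13941 ± 6397 CPM in SPF ICH day 7. All 3 GF ICH day 7 libraries and 2 of the 3 GF shams in these comparisons are among the 7.

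Some markers of other cells also changed, and their part in the results was not tested. In bulk RNA fewer cells of a type and less RNA per cell cannot be told apart. At day 3 against sham the microglial markers Gpr34, Siglech, P2ry12 and P2ry13 fell, and 2 of 10 monocyte markers rose (S100a4, Ccr2). Of all genes tested, 182 were higher and 47 lower in that comparison (1.30% called). Summed monocyte markers reached 30.8 to 297.8 CPM at ICH day 3 and 6.82 to 616.5 CPM in sham, and those of border-associated macrophages, of which 0 of 9 were called, 58.8 to 374.5 CPM at ICH day 3 and 4.87 to 1170 CPM in sham. Median sums were 95.1 CPM at day 3 and 21.5 CPM in sham for monocytes, and 181.9 and 50.2 CPM for border-associated macrophages. In ABX mice the latter reached 173.7 to 374.5 CPM at day 3 and 27.5 to 50.2 CPM in sham. In SPF mice they reached 140.8 to 272.4 and 4.87 to 122.1 CPM, and in GF mice 58.8 to 181.9 and 42.3 to 1170 CPM. Within that list Cd163, the hemoglobin receptor of those macrophages, was at 0 in all libraries of ABX ICH day 3 and SPF ICH day 3. Of 6 erythroid markers tested 0 were called at day 3, and their sums were 38.6 to 664.9 CPM at ICH day 3 and 34.9 to 2692 CPM in sham.

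By day 7, against sham, 5 of 10 monocyte markers, 3 of 9 of border-associated macrophages and 1 of 9 tested of neutrophils rose, and 0 of 6 erythroid markers were called. Of all 17573 genes tested, 654 were higher and 2904 lower in that comparison (20.2% called). Summed monocyte markers were highest in GF ICH day 7, at 650.8 to 2321 CPM with Itga4 at 0 in all 3 libraries, against 6.82 to 616.5 CPM in GF sham. Summed neutrophil markers reached 919.9 to 3573 CPM in GF ICH day 7 with Mmp9 at 0, against 207.6 to 895.3 CPM in GF sham. Of 12 microglial markers 1 rose (Gpr34) and 5 fell at day 7 against sham. Of the astrocyte, oligodendrocyte, endothelial, neuron and T and NK cell lists, 1 gene fell at day 3 (Slc1a3), and at day 7 against sham 4 fell (Mbp, Mag, Pecam1, Syt1).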

How the data were processed

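The members, gene lists and tests were chosen with earlier results of these data known. RNA of sorted microglia in picogram amounts was made into libraries with the SMART-Seq v4 low-input kit and sequenced in read pairs, per the labels' protocols. HISAT2 2.0.4, StringTie 1.3.4d, cutadapt 1.9 and edgeR are listed for the mm10 assembly, per the submitters' processing notes; annotation release, strand and mate counting are not given in the sources used here. The authors deposited raw counts per gene as whole numbers. GENCODE M21 gave symbols to 52073 of 56691 identifiers. Without a stated strand, reads of overlapping genes cannot be told apart: Slc48a1 and Slc11a2 overlap antisense genes.

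The filterByExpr rule kept 17573 genes with 99.9% of counts. Library sizes were scaled by TMM (factors 0.476 to 1.31; at 0.476, the CPM of ABX ICH day 7 replicate 1 is about double that on raw totals). One edgeR 4.0.16 quasi-likelihood fit (robust, R 4.3.3) over 9 group means gave 22 comparisons, 3 of them averaged over GF, ABX and SPF, with Benjamini-Hochberg adjustment over all genes at 0.05. Each SE is the absolute log2 fold change divided by the square root of F. A common biological coefficient of variation of 1.54 was estimated. The fit was also run on simulated counts, with the same mean per gene in every group except for known changes at ICH day 3. Those counts did not imitate the libraries of few detected genes or the GC differences. The outcome is not reported here. Counts at an unadjusted p use 0.05. Correlations use log2 CPM with a prior count of 2. All replicate pairs differed beyond sampling noise.

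All 10 members are named, with Fth1, Ftl1, Hmox2, Bach1 and Nfe2l2, list genes past 0.05, and the 3 genes most alike to Hmox1. Lists cover pathway roles and markers of microglia, monocytes, border-associated macrophages, neutrophils, erythroid cells, endothelium, astrocytes, oligodendrocytes, neurons, and T and NK cells. Some list results are not reported here. Alternatives were DESeq2 1.42.0, voom of limma 3.58.1 with quality weights, other size factors, no filter, no robust estimates, a replicate block, leaving out each library or the 7 under 12000 detected genes, fits of 1 condition, the longest transcript as length, and CPM on raw totals. Averages over SPF and ABX alone and GC offsets (spline, 6 degrees of freedom) were added after the data were seen.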

Additional observations from a re-analysis of the deposited data

How the results depend on the processing

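Over all 27 libraries the rise of Hmox1 at day 3 and its fall between day 3 and day 7 passed under every alternative that averages GF, ABX and SPF; averaged over SPF and ABX alone with all libraries, the fall was −2.65 and did not pass (adjusted p = 0.214). Day 7 comparisons in GF and ABX mice, and averages that include them, rest partly on the 7 libraries of few detected genes. No SPF library is among the 7, but the SPF tests share a spread that was estimated over all 27 libraries. With 1 library left out at a time, Hmox1 in SPF day 3 against sham passed only without GF ICH day 7 replicate 2 (edgeR adjusted p = 0.0287). GF ICH day 7 has no library left without the 7. The large spread between libraries limits what a missed threshold can say, and values near 1 CPM set the size of several day 7 estimates.

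The number of members called, 1 at day 3 against sham averaged over conditions, was 2 by DESeq2, 2 by voom, 3 without the 7 libraries and 3 in SPF and ABX mice without them. For day 7 against sham the averaged count of 0 became 1 by DESeq2, 2 by voom, 1 with DESeq2 size factors, 2 in SPF and ABX mice without the 7 libraries and 1 with GC offsets. For day 7 against day 3 the averaged count of 4 became 8 by voom, 2 with GC offsets and 0 over SPF and ABX mice with all libraries. The share of all genes called also differed by setting. By DESeq2 it was 8.53% at day 3 and 38.2% at day 7 against sham. By voom it was 5.42% at day 3 and 14.2% at day 7 against sham, and 26.2% at day 7 against day 3. With GC offsets it was 17.2% at day 7 against sham and 13.6% at day 7 against day 3. With DESeq2 size factors it was 23.9% at day 7 against sham. DESeq2 gave 1 for SPF day 3 against sham (5.43% of all genes), 2 for ABX day 3 (6.18%), 3 for ABX day 7 (27.8%) and 3 for ABX day 7 against day 3 (27.4%). It gave 2 for GF day 3 (4.10%) and 2 for GF day 7 (39.4%) against sham. At day 7 it gave 3 for ABX against SPF (25.4%), 2 for GF against SPF (35.9%) and 1 for the GF minus SPF response (28.1%). Voom gave 2 for SPF day 3 (3.01% of all genes), 1 for SPF day 7 against day 3 (0.501%), 3 for ABX day 3 (4.94%) and 2 for ABX day 7 (3.31%). For day 7 against day 3 it gave 3 in ABX mice (1.99%) and 6 in GF mice (28.5%). At day 7 it gave 1 for ABX against SPF (1.47%), 3 for GF against SPF (19.2%) and 1 for the GF minus SPF response (5.31%). Without the 7 libraries the counts were 1 for SPF day 3, SPF day 7, SPF day 7 against day 3 and GF day 3, 2 for ABX day 3 and the ABX minus SPF day 7 response, 3 for ABX against SPF at day 7, and 4 for ABX day 7 against sham and against day 3. DESeq2 size factors gave 2 for GF against SPF at day 7 (13.7% of all genes), SPF libraries alone gave 1 at day 3, and GF libraries alone gave 0 at day 7 against sham and against day 3. With GC offsets GF day 7 against sham had 0 (12.2% of all genes). The share of all genes is not reported here for fits of 1 condition or for SPF and ABX mice with all libraries. Counts from those fits are therefore no result about the members.

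Leaving out each library in turn, the averaged counts ranged from 1 to 2 at day 3, 0 to 3 at day 7 and 3 to 5 at day 7 against day 3. For these fits and those in the next sentence the share of all genes is not reported here. The averaged counts are those over GF, ABX and SPF mice. Counts of single comparisons ranged from 0 to 1 for SPF day 3, ABX day 3, ABX day 7, ABX against SPF at day 7 and the GF minus SPF day 7 response. The ranges were 0 to 2 for ABX day 7 against day 3 and GF day 7, 2 to 5 for GF day 7 against day 3, and 1 to 3 for GF against SPF at day 7. Slc48a1 at day 3, averaged, passed without GF sham replicate 3 alone (2.39 to 3.82 over all), and Ncoa4 in GF day 7 against day 3 passed in 22 of 27 (1.63 to 1.91). Hmox1 in GF day 7 against sham passed without GF ICH day 7 replicate 2 alone (−5.07 to −0.06).

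Some log2 fold changes turned sign, with an adjusted p of at least 0.0798 where they did. At day 3 against sham Slc11a1 was −0.12 with GC offsets, Slc11a2 −0.05 by DESeq2 and its size factors, and Lrp1 −0.06 by DESeq2, voom and DESeq2 size factors and −0.46 with GC offsets. At day 7 against sham Hmox1 was −0.07 by voom, Blvrb −0.03 by DESeq2 and its size factors and −2.02 by voom, Slc40a1 −0.45 by voom and −0.24 with GC offsets, Slc11a1 0.33 in SPF and ABX mice without the 7 libraries, and Lrp1 0.68 with GC offsets. At day 7 against day 3, with GC offsets, Blvrb was 0.22, Slc40a1 −0.01, Slc11a1 0.07 and Lrp1 1.14, and by voom Slc40a1 was −0.38. Hmox1 in GF day 7 against sham was 0.98 with GC offsets. With single libraries left out, the ranges at day 3 were −0.60 to 0.02 for Slc40a1, −0.04 to 0.74 for Slc11a2 and −0.21 to 0.37 for Lrp1. At day 7 against sham they were −1.88 to 0.56 for Blvrb, −1.16 to 0.82 for Slc40a1, −1.05 to 2.79 for Tfrc and −2.54 to 0.28 for Lrp1, and at day 7 against day 3 −0.70 to 0.99 for Slc40a1 and −2.54 to 0.12 for Lrp1. The cause of these changes was not tested.

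Replicate numbers are not said to pair the libraries. Deviations of same-numbered libraries correlated at 0.00 on average (−0.13 to 0.10), which cannot exclude a pairing given the spread between libraries. With the replicate block Hmox1 was 5.29 at day 3 (adjusted p = 0.000372) and −3.80 at day 7 against day 3 (adjusted p = 0.00205), Lrp1 at day 3 turned to −0.29, and the count of GF day 7 against sham became 0 as Slc48a1 (−4.36) no longer passed.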
